A study of Mus musculus with 9 samples.

Results

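The 8 genes described here encode the colony-stimulating factors and their receptors: the ligands *Csf1*, *Csf2* and *Csf3* and the receptor chains *Csf1r*, *Csf2ra*, *Csf2rb*, *Csf2rb2* and *Csf3r*. They were taken by gene symbol, and each symbol matched 1 of the 55471 genes in the counts. All 8 passed the filter on low counts, which left 16260 genes, although *Csf2* and *Csf3* passed through their LPS libraries alone, so that both had to be high with LPS to be tested. Bone marrow-derived dendritic cells (DCs) of wild-type C57BL/6 mice were grown with GM-CSF and were then left unstimulated, activated with LPS at 100 ng/mL or treated with IFN-β at 1000 U/mL, all for 6 h. The donors were adult female mice. GM-CSF, the protein encoded by *Csf2*, was in the medium in which the cells of all 3 groups were grown, at 20 ng/mL. Whether it was also present during the 6 h is not stated. Each group had 3 libraries of ribosome-depleted RNA, lettered A, B and C, with 33425803 to 43735199 counts on genes per library. Whether the letters mark separate mice or cultures is not stated, so p-values may measure technical spread. Values are CPM, the counts of a gene relative to the total of its library, scaled with TMM factors, which correct for composition. These factors were 1.18 to 1.26 in unstimulated, 0.783 to 0.841 in LPS-activated and 0.977 to 1.02 in IFN-β-treated libraries, so the choice of scaling bears on every small difference.

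Colony-stimulating factors are secreted glycoproteins that sustain the growth, survival and activity of myeloid cells. M-CSF (*Csf1*) binds a receptor tyrosine kinase (*Csf1r*) on monocytes and macrophages, G-CSF (*Csf3*) binds a receptor (*Csf3r*) that is most prominent on neutrophils and their precursors, and GM-CSF binds a specific α chain (*Csf2ra*) that pairs with the common β chain (*Csf2rb*) to signal through JAK2 and STAT5. Mice carry a further β chain, *Csf2rb2*, which is the IL-3-specific copy. GM-CSF is the factor that drives bone marrow progenitors into the DC cultures used here, and the ligand mRNAs are known for AU-rich stretches that shorten their life.

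The labelled cell type was checked against marker genes. The 10 dendritic markers summed to between 4376 and 6758 CPM, with *Itgax* (CD11c) at 1358 to 1672 CPM and *Cd74* at 2294 to 3917 CPM. In contrast, *Flt3* had 1.88 to 4.99 CPM and *Xcr1* stayed below 1 CPM. The 10 macrophage markers summed to between 10680 and 15040 CPM, of which *Lyz2* alone gave 7946 to 13120 CPM. Some transcripts of both kinds were thus abundant in every library, and both sums rest largely on these few genes. No sort is described for these libraries, and in bulk RNA fewer cells of a type cannot be told apart from less RNA per cell. The 11 neutrophil markers summed to between 249 and 484 CPM, of which *Mmp8* alone gave 235.6 to 459.7 CPM, while *Ly6g*, *Mpo*, *Elane* and *Retnlg* each stayed below 1 CPM in every library. The sums for 10 T and NK cell markers and 6 B cell markers reached at most 3.58 and 0.601 CPM.

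The sequences of the ligand mRNAs show how they differ among themselves. In the longest coding transcript of each gene (GENCODE M21, GRCm38), the 3′ UTR of *Csf2* held 9 copies of the pentamer ATTTA in 317 bases, that of *Csf3* held 6 in 669 bases and that of *Csf1* held 4 in 2111 bases. Each is printed as the 30-base window with the most copies, 5′ to 3′, with the pentamers in capitals.
*Csf2*, UTR bases 230 to 259: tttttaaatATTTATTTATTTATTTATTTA
*Csf3*, UTR bases 24 to 53: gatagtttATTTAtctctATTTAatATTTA
*Csf1*, UTR bases 2021 to 2050: tttatataaggtcATTTAaatatctATTTA
The 5 overlapping copies in the *Csf2* window are matched or exceeded by 0.252% of 21039 genes with a 3′ UTR, the 3 copies in that of *Csf3* by 2.51% and the 2 copies in that of *Csf1* by 18.4%. The 3′ UTR of *Csf1r* held 3 copies, with no more than 1 in any such window, and those of *Csf2ra*, *Csf2rb*, *Csf2rb2* and *Csf3r* held 0, as did 35.3% of genes.

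The β chain genes lie next to each other and are nearly the same in sequence. On GRCm38, *Csf2rb2* spans 15:78282507-78305721 on the minus strand and *Csf2rb* spans 15:78325752-78353847 on the plus strand, with 20030 bases between them. Their coding sequences were identical at 2503 of 2628 aligned bases (95.2%). Of the 2589 windows of 100 bases in the *Csf2rb* coding sequence, the length of 1 read, 286 (11%) occur unchanged in *Csf2rb2*. The stretch of 90 coding bases in which they differ most is printed with the 16 differing bases in capitals, since reads over such positions are what separates the counts of the genes.
*Csf2rb*, coding bases 308 to 397: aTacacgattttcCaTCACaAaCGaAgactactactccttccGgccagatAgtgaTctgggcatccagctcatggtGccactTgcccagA
*Csf2rb2*, coding bases 311 to 400: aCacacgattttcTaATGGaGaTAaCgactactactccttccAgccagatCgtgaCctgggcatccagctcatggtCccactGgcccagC
Counts of either gene are therefore uncertain to the extent that reads from the identical stretches were dropped or split.

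In unstimulated DCs the receptor chains for GM-CSF and M-CSF were abundant and the ligands were not, apart from *Csf1*. Levels of different genes were compared as CPM per kilobase of exon (mean ± SD, n = 3). *Csf2rb* stood highest at 320 ± 18.8, followed by *Csf2rb2* at 218 ± 9.69, *Csf1r* at 191 ± 15.2 and *Csf2ra* at 107 ± 2.08. *Csf1* followed at 24.9 ± 3.05, *Csf3r* at 5.10 ± 3.58 and *Csf3* at 0.105 ± 0.00807, and *Csf2* had 0 counts. In LPS-activated DCs the same scale put *Csf2ra* at 125 ± 7.19, above *Csf1r* at 97.3 ± 4.07. The other members kept their places, and IFN-β-treated DCs had the same order as unstimulated DCs. No neighbours in these orders overlapped in their libraries' levels. Taking the longest transcript as the length in place of all exons exchanged *Csf1r* and *Csf2rb2* in unstimulated DCs and no other pair in any group.

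LPS changed 7 of the 8 members by edgeR's quasi-likelihood F-test at a Benjamini-Hochberg (BH) adjusted p under 0.05: 6 rose and 1 fell, where 68.2% of all genes tested were changed, 32.8% higher and 35.4% lower. *Csf1*, *Csf2*, *Csf3* and *Csf3r* rose and *Csf1r* fell under every scaling tried. *Csf2* and *Csf3* passed the filter only through their LPS libraries. Being high with LPS was thus a condition for their place in these counts and in the median below. *Csf2ra* and *Csf2rb2* rose by small amounts with TMM factors but fell with scaling by library size only, a scaling under which the median of all genes shifted by -0.58 on the log2 scale. *Csf2rb* then fell too, so that 4 members were higher and 4 lower, where 12685 of all genes were changed, 2779 of them higher. In 7 members the LPS-activated libraries did not overlap the unstimulated libraries, as in 72.4% of all genes tested. The median log2 fold change of the members was 0.60 (with *Csf2* entered at the bound given below), against -0.04 for all genes tested. Without the 3 A libraries, which had the highest *Csf3r*, 5 members were changed, and the calls for *Csf2ra* and *Csf2rb2* were lost. Over all genes 10377 were then changed, 5028 of them higher, against 11084 in the main fit.

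IFN-β changed 2 of the 8 members, *Csf1* and *Csf2rb2*, both higher, where 46.9% of all genes tested were changed, 23.6% higher and 23.3% lower. With the replicate letter as a block, 4 members were higher, *Csf2ra* and *Csf3r* joining them. The block also raised the number of all genes changed by IFN-β, from 7631 to 9151, 4538 of them higher. With TMM factors no member fell, be it at the adjusted threshold or at an unadjusted p under 0.05, where 3 were higher, and DESeq2 called 3 higher and 0 lower. Over all genes DESeq2 called 7381 changed, 3840 of them higher, and no count over all genes was made at the unadjusted threshold. With scaling by library size only, which moved the median of all genes by -0.31, *Csf1* was higher and *Csf1r* lower. That scaling had 9629 of all genes changed, 2146 of them higher. The IFN-β-treated libraries did not overlap the unstimulated libraries for *Csf1*, *Csf2ra* and *Csf2rb2*, a separation seen in 58.1% of all genes tested. The median log2 fold change of the 7 members other than *Csf2* was 0.18, against -0.02 for all genes tested.

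**Figure D1:**
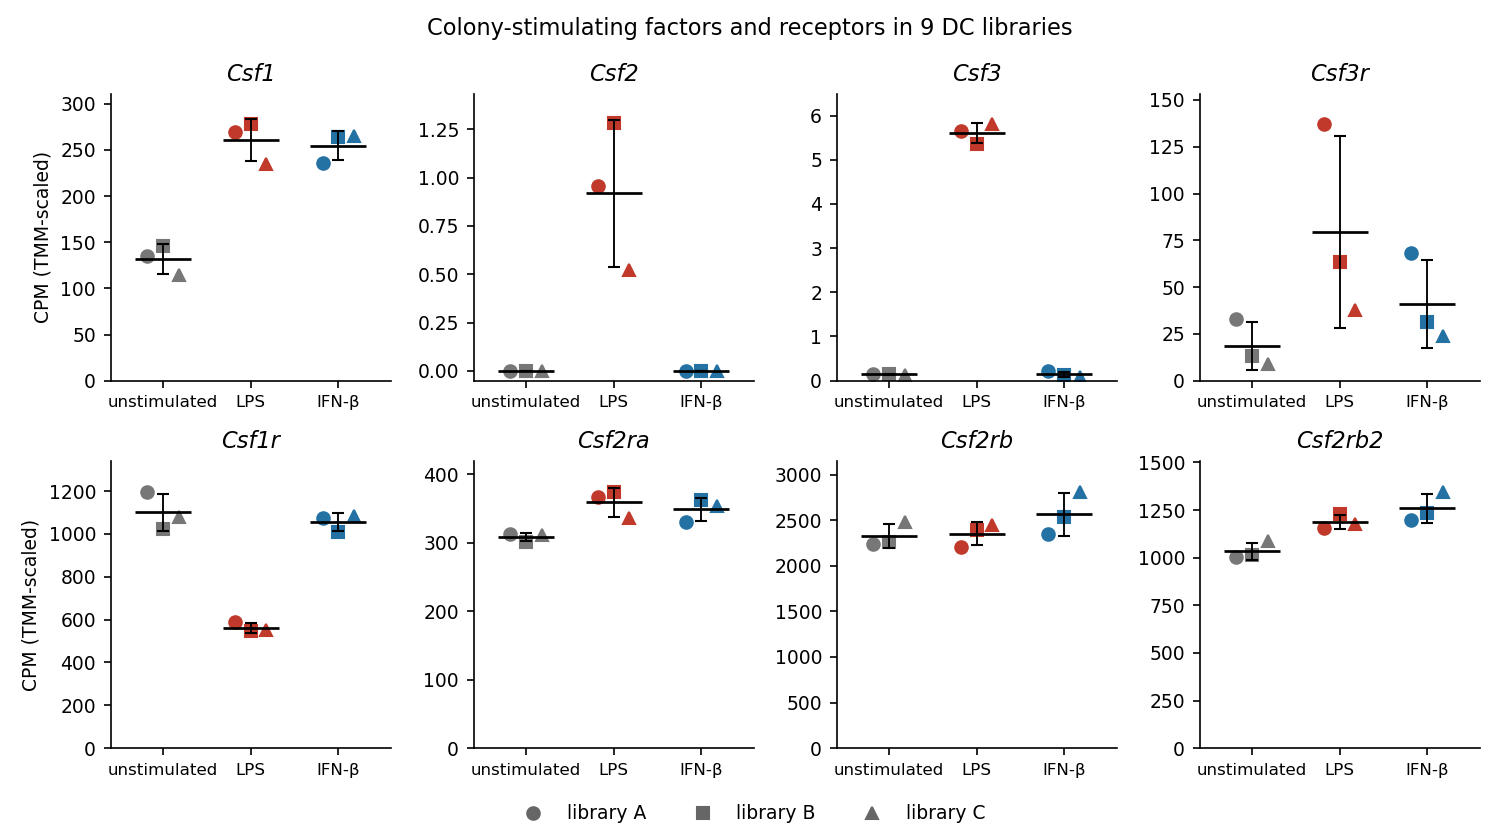
TMM-scaled CPM (linear axes) of the 8 genes in each library, by group, with circles, squares and triangles for libraries A, B and C, horizontal lines for group means and bars for the SD (n = 3). *Csf2* lies above 0 in the 3 LPS-activated libraries alone, *Csf1r* sits at 546 to 589 CPM in them against 1007 or more elsewhere, and library A is the highest for *Csf3r* in each group.

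The ligands differed in which stimulus raised them. *Csf1*, at 3:107741048-107760469 on the minus strand, was the ligand with the highest level, and it was raised by both stimuli. It had 134.8, 145.8 and 114.1 CPM in unstimulated libraries A, B and C, 268.8, 277.7 and 234.8 CPM with LPS, and 236.1, 263.4 and 264.6 CPM with IFN-β. Every stimulated library was above every unstimulated library, and the LPS and IFN-β libraries overlapped. LPS raised it by 0.99 on the log2 scale (SE 0.10, adjusted p = 7.79e-06) and IFN-β by 0.95 (SE 0.10, adjusted p = 3.83e-05) by edgeR's quasi-likelihood F-test with BH. The difference between the responses was -0.03 on the log2 scale, with a 95% interval from -0.26 to 0.19.

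*Csf2*, at 11:54247271-54249667 on the minus strand, was read in LPS-activated DCs only. It had 0 counts in all unstimulated and all IFN-β-treated libraries, and 27, 44 and 17 counts in LPS libraries A, B and C, which correspond to 0.955, 1.28 and 0.522 CPM. Exact 95% Poisson intervals of those counts, which cover counting error only, ran from 17.8 to 39.3, from 32 to 59.1 and from 9.90 to 27.2. The 3 counts per library that a count of 0 allows are worth 0.0703 CPM on average in unstimulated DCs, so *Csf2* was at least 13.1-fold higher with LPS (adjusted p = 2.27e-04, edgeR's quasi-likelihood F-test with BH). Against the same floor in IFN-β-treated DCs it was at least 11.9-fold higher (adjusted p = 5.12e-04, the same test), and no fold can be given between unstimulated and IFN-β-treated DCs. Because *Csf2* passed the filter through its LPS libraries alone, it had to be high with LPS to be tested. Its exons overlap those of the antisense gene *Gm12223*, which had 0 counts in every library, and the strand setting of the counting is not stated. Even after LPS it stayed the lowest member, at 1.15 ± 0.476 CPM per kilobase (SD, n = 3).

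*Csf3*, at 11:98701263-98703629 on the plus strand, had the largest measured fold change among the members with reads in both groups. It had 0.152, 0.157 and 0.135 CPM in the unstimulated libraries, 5.66, 5.36 and 5.80 CPM with LPS, and 0.211, 0.133 and 0.0828 CPM with IFN-β, which are 6, 7 and 6, then 160, 184 and 189, then 9, 5 and 3 counts. The LPS libraries lay far above the rest and close to each other, while the IFN-β and unstimulated libraries overlapped. The log2 fold change under LPS was 5.21 (SE 0.23, adjusted p = 1.95e-08, edgeR's quasi-likelihood F-test with BH). Under IFN-β it was -0.03, with a 95% interval from -0.82 to 0.77, so a change within that range was not detectable. *Csf3*, too, passed the filter through its LPS libraries alone and had to be high with LPS to be tested. Excluding genes with fewer than 10 counts in any library removes *Csf2* and *Csf3* from the test, and *Csf3* was not tested in a fit of unstimulated and IFN-β-treated libraries alone.

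*Csf1r*, the receptor for M-CSF (18:61100598-61132149, plus strand), was the member that fell under LPS. It had 1197, 1025 and 1080 CPM in the unstimulated libraries, 589.0, 546.2 and 550.9 CPM with LPS, and 1073, 1007 and 1084 CPM with IFN-β. All LPS libraries were below all others, and the IFN-β and unstimulated libraries overlapped. The log2 fold change was -0.97 under LPS (SE 0.08, adjusted p = 1.88e-06) and -0.06 under IFN-β (SE 0.08, adjusted p = 0.57) by edgeR's quasi-likelihood F-test with BH. The responses differed by 0.91 on the log2 scale, IFN-β against LPS (adjusted p = 8.4e-06, the same test). The fall also stood out within libraries, where no scaling enters: per 100 counts of *Csf2rb* there were 43.5 to 53.6 counts of *Csf1r* in unstimulated, 22.5 to 26.7 in LPS-activated and 38.6 to 45.7 in IFN-β-treated DCs. An exon of *Csf1r* overlaps *Hmgxb3* on the other strand, which had 1422 to 2201 counts per library. The M-CSF receptor and its ligand *Csf1* thus moved in opposite directions under LPS.

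The GM-CSF receptor chains and the IL-3-specific *Csf2rb2* changed by small amounts. *Csf2ra*, at 19:61223957-61228429 on the minus strand, had 312.1, 301.0 and 310.4 CPM in the unstimulated libraries, 366.7, 374.1 and 335.2 CPM with LPS, and 330.0, 361.5 and 353.3 CPM with IFN-β. Both stimulated groups lay above the unstimulated group without overlap. The log2 fold change under LPS was 0.22 (SE 0.07, adjusted p = 0.0154, edgeR's quasi-likelihood F-test with BH), but -0.36 with scaling by library size only (adjusted p = 7.46e-04), and the call was lost without unstimulated library B (0.20) or LPS library B (0.19). Under IFN-β it was 0.18 (adjusted p = 0.0566, edgeR's quasi-likelihood F-test with BH), and 0.18 with the replicate letter as a block (adjusted p = 0.0308).

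*Csf2rb*, the signalling chain shared by the receptors for GM-CSF, IL-3 and IL-5, had 2234, 2261 and 2483 CPM in the unstimulated libraries, 2207, 2395 and 2448 CPM with LPS, and 2346, 2535 and 2811 CPM with IFN-β. The 3 groups overlapped. Its log2 fold change was 0.02 under LPS, with a 95% interval from -0.20 to 0.23, and 0.14 under IFN-β, with an interval from -0.08 to 0.36, and neither passed the test. With scaling by library size only the LPS value was -0.57 (adjusted p = 4e-04, edgeR's quasi-likelihood F-test with BH), close to the shift of all genes.

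*Csf2rb2* had 1002, 1012 and 1086 CPM in the unstimulated libraries, 1158, 1231 and 1176 CPM with LPS, and 1199, 1235 and 1346 CPM with IFN-β. Both stimulated groups were above the unstimulated group without overlap. The log2 fold change was 0.20 under LPS (SE 0.08, adjusted p = 0.0433) and 0.29 under IFN-β (SE 0.08, adjusted p = 0.0132) by edgeR's quasi-likelihood F-test with BH, and both turned negative with scaling by library size only (-0.38 and -0.02). The LPS call was lost in 6 of the 9 fits that left out 1 library: unstimulated A or B, LPS A, B or C, or IFN-β B. The IFN-β call was lost without unstimulated library B (log2 fold change 0.27, adjusted p = 0.0596, the same test).

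The balance between the β chains does not depend on scaling, since both are counted in the same library. *Csf2rb2* gave 30.96%, 30.92% and 30.43% of the counts on both chains in the unstimulated libraries A, B and C, 34.42%, 33.95% and 32.45% with LPS, and 33.82%, 32.76% and 32.37% with IFN-β. Every stimulated library had a larger share of *Csf2rb2* than every unstimulated library. The means were 30.77% ± 0.296, 33.61% ± 1.03 and 32.98% ± 0.749 (SD, n = 3). The exact two-sided permutation test gave p = 0.1 for each stimulus against unstimulated, which is the smallest p that 3 against 3 libraries allow, and p = 0.4 between IFN-β and LPS. The summed counts of both chains had a log2 fold change of 0.08 under LPS (adjusted p = 0.516) and 0.19 under IFN-β (adjusted p = 0.145) by edgeR's quasi-likelihood F-test with BH. Per 100 counts of *Csf2rb*, those of *Csf2ra* numbered 12.5 to 14.0 in unstimulated, 13.7 to 16.6 in LPS-activated and 12.6 to 14.3 in IFN-β-treated DCs, and these ranges overlapped. Compared within a letter this number was higher with LPS in all 3 letters (13.97 to 16.62 in A, 13.31 to 15.62 in B and 12.5 to 13.69 in C). With IFN-β it was 14.07, 14.26 and 12.57, which in A and C was nearly the unstimulated number.

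**Figure D2:**
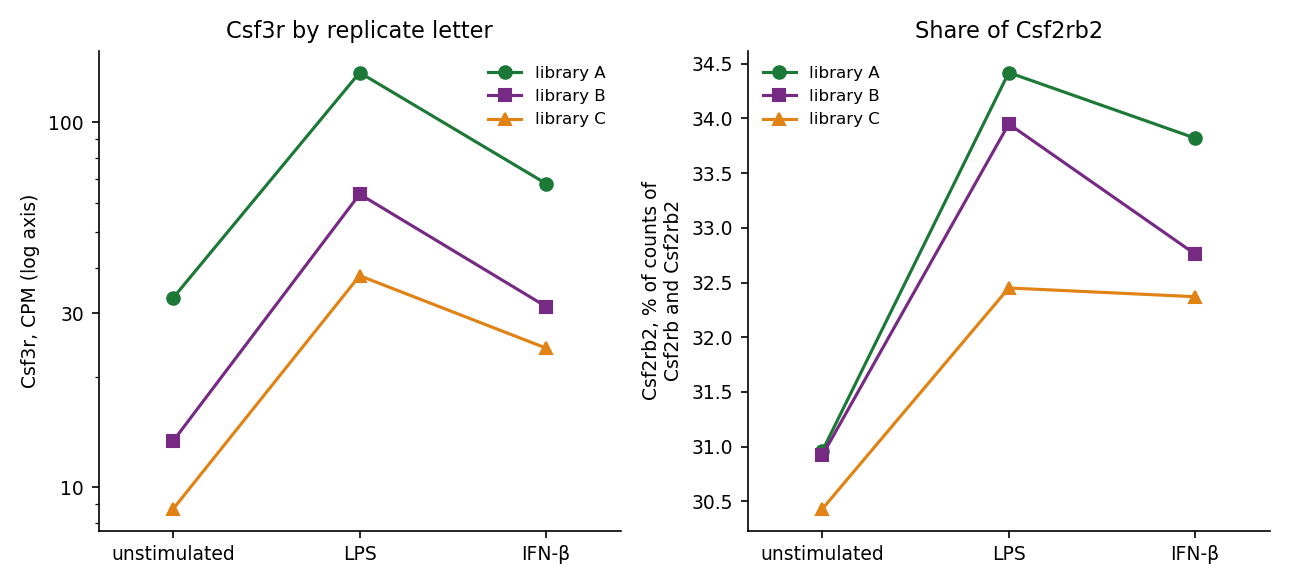
*Csf3r* in CPM on a log axis (left) and the share of *Csf2rb2* among the counts of *Csf2rb* and *Csf2rb2* in percent, on an axis that does not start at 0 (right), for libraries A, B and C of each group, joined by letter. For *Csf3r* the letters keep the order A, B, C in each group and all 3 lines have the same shape, and for the share each line rises from 30.4% to 31.0% in unstimulated DCs to 32.4% or more with either stimulus.

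*Csf3r*, the G-CSF receptor (4:126024550-126044440, plus strand), varied more between libraries of a group than any other receptor here. It had 33.1, 13.4 and 8.73 CPM in unstimulated libraries A, B and C, 137, 63.6 and 38.01 CPM with LPS, and 68.0, 31.3 and 24.1 CPM with IFN-β. In each group A was highest and C lowest, and all LPS libraries were above all unstimulated libraries, while IFN-β libraries overlapped both. The log2 fold change under LPS was 2.11 (SE 0.59, adjusted p = 0.00799, edgeR's quasi-likelihood F-test with BH), and it ranged from 1.47 to 2.83 when 1 library was left out, passing the test in all 9 fits. Under IFN-β it was 1.17 (SE 0.58, adjusted p = 0.123, the same test). Compared within a letter, log2(CPM + 0.5) was higher with LPS by 2.03, 2.21 and 2.06 in A, B and C, and higher with IFN-β by 1.03, 1.19 and 1.41.

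With the replicate letter as a block in the model, the log2 fold change of *Csf3r* was 2.13 under LPS (SE 0.08, adjusted p = 1.85e-11) and 1.23 under IFN-β (SE 0.08, adjusted p = 2.15e-08), and IFN-β differed from LPS by -0.91 (adjusted p = 1.76e-07), all by edgeR's quasi-likelihood F-test with BH. Without the block that difference was -0.95 (adjusted p = 0.19, the same test). Without unstimulated library A the unblocked IFN-β value was 1.89 (adjusted p = 0.0245), and without the 3 A libraries it was 1.32 (adjusted p = 0.00487), by edgeR's quasi-likelihood F-test with BH. The order A above B above C in every group held for 4.67% of all genes tested. It also held for the neutrophil markers *S100a9*, *Ltf* and *Ngp*, 3 of 11, for the macrophage markers *Adgre1*, *Cd68* and *Itgam*, 3 of 10, and for the dendritic markers *Flt3* and *Clec9a*, 2 of 10. *S100a9* had 6.05, 2.09 and 1.02 CPM in unstimulated libraries A, B and C, against 5.76, 1.46 and 0.768 CPM with LPS. The summed neutrophil markers were 369 to 484 CPM in unstimulated, 249 to 327 CPM in LPS-activated and 338 to 433 CPM in IFN-β-treated DCs, but this sum was mostly *Mmp8*, which had 358.5 to 459.7, 235.6 to 301 and 327.7 to 412.8 CPM in these groups. The other 10 markers together, a sum added after the data were seen, gave 23.8, 10.8 and 12.2 CPM in unstimulated libraries A, B and C, 25.7, 13.4 and 16.0 CPM with LPS, and 20, 9.93 and 10.0 CPM with IFN-β. This sum was highest in A in each group and, within each letter, highest with LPS, as *Csf3r* was. Unlike *Csf3r*, it was lower with IFN-β than unstimulated within each letter, and it was lower in B than in C in each group. Most of this sum was *S100a8*, which had the same orders by itself, so they rest largely on that gene. It had 6.85 to 13.2, 9.70 to 15.2 and 6.48 to 10.0 CPM in unstimulated, LPS-activated and IFN-β-treated DCs. Within a letter, *S100a9* was lower with LPS in all 3, *Ngp* was higher in all 3, and *Ltf* was lower in A and B and higher in C. The part of neutrophils in the result was not tested.

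**Figure D3:**
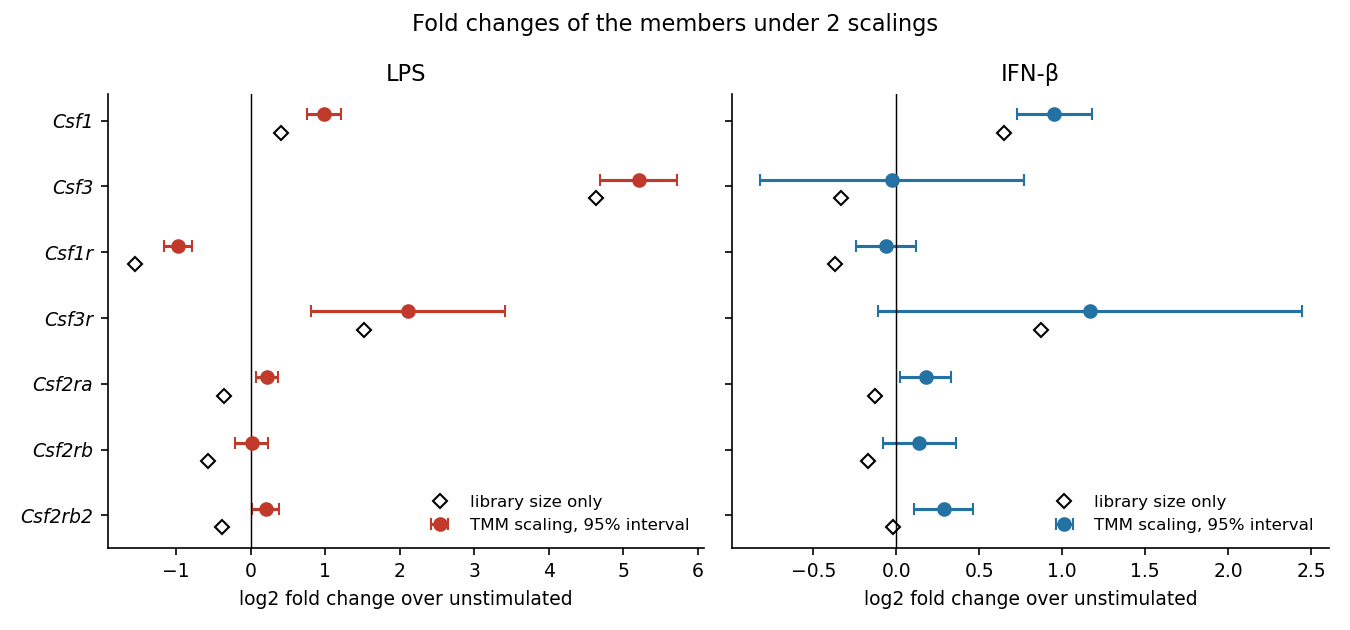
Log2 fold changes over unstimulated DCs under LPS (left) and IFN-β (right) for 7 of the members, without *Csf2*, with filled circles and 95% intervals for TMM scaling and open diamonds for scaling by library size only. *Csf3* (5.21) and *Csf3r* (2.11) lie farthest to the right under LPS and *Csf1r* (-0.97) to the left, and for *Csf2ra* and *Csf2rb2* circle and diamond fall on opposite sides of 0 in both panels, as they do for *Csf2rb*.

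Tested against each other, the responses to IFN-β and LPS differed for 3 of the 8 members by edgeR's quasi-likelihood F-test with BH, where 49.1% of all genes tested differed, 25.8% higher and 23.3% lower with IFN-β. *Csf2* and *Csf3* were lower with IFN-β and *Csf1r* was higher. Both *Csf2* and *Csf3* were tested only because they were high with LPS. The difference for *Csf3* was -5.24 on the log2 scale (SE 0.24, adjusted p = 6.6e-08, edgeR's quasi-likelihood F-test with BH). In these 3 members the groups did not overlap, as in 56.8% of all genes tested. The differences of *Csf2ra* (-0.04), *Csf2rb* (0.13) and *Csf2rb2* (0.08) did not pass the test, and their 95% intervals ran from -0.20 to 0.11, from -0.09 to 0.34 and from -0.09 to 0.26. With scaling by library size only all 3 chains were higher with IFN-β than with LPS (0.23, 0.40 and 0.36).

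Promoter sequences from RefSeq (GRCm38.p6) were at hand for *Csf1*, *Csf2*, *Csf2ra*, *Csf2rb2* and *Csf3r*, and not for *Csf1r*, *Csf2rb* and *Csf3*. The 250 bases before the RefSeq start were searched on both strands for a κB site, AP-1 (TGANTCA), ISRE (TTTC, NN and TTTC again), GAS (TTCNNNGAA), PU.1/ETS (GAGGAA) and C/EBP (TTNNGNAA). κB and GAS matches are shown for the 3 genes that held one. *Csf1* and *Csf3r* each held a κB match, at 154 and 129 bases before the start, a motif that 7.25% of 32851 promoters held. *Csf2rb2* held a GAS match at 15 bases, a motif that 7.02% held. They are printed 5′ to 3′ on the gene's strand with the match in capitals, and for *Csf3r* only as far as the annotated gene begins.
*Csf1*, chr3:107760470-107760719, minus strand: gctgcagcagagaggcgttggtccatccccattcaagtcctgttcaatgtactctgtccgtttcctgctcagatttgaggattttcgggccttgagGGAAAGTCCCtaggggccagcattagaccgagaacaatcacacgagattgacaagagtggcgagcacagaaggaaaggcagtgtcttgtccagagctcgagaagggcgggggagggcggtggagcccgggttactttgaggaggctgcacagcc
*Csf3r*, chr4:126024409-126024549, plus strand: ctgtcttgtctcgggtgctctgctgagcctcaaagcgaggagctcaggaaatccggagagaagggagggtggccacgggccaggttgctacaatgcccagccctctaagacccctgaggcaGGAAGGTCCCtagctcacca
*Csf2rb2*, chr15:78305722-78305971, minus strand: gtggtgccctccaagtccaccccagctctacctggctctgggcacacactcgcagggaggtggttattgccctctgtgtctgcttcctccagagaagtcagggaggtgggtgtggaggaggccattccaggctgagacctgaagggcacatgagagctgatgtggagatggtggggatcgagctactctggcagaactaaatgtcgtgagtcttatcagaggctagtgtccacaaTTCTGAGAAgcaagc
For *Csf2*, 232 bases separate the searched bases from the annotated gene, so its matches are not given. For *Csf2ra* and *Csf3r* the searched bases run 11 and 109 bases into the annotated gene. None of the other 4 promoters held AP-1 or ISRE letters. PU.1/ETS letters, present in 23.3% of promoters, were found in those of *Csf2ra* (2 matches), *Csf2rb2* and *Csf3r*, and C/EBP letters, present in 36.8%, in that of *Csf2ra*. A match describes letters and does not show binding.

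Genes around the members were described by lists. For comparison, LPS raised 32.8% and lowered 35.4% of all genes tested, and IFN-β raised 23.6% and lowered 23.3%. Of 9 related ligands and receptors, 5 were tested, since *Il3*, *Il5*, *Il34* and *Il5ra* did not pass the filter. *Il3ra*, the α chain that joins IL-3 to the β chains, rose under both stimuli, with log2 fold changes of 1.04 under LPS (17.4 ± 2.73 to 35.7 ± 2.96 CPM, SD, n = 3) and 0.54 under IFN-β. *Kitl*, the ligand of the KIT receptor, also rose under both (0.87 and 1.58), and *Kit* fell under IFN-β (-1.25). Of 20 genes that carry the receptors' signal, LPS raised 16 and lowered 2, with a median of 0.85, and IFN-β raised 12 and lowered 2, with a median of 0.36. *Stat5a*, the transcription factor that GM-CSF activates, had 44.2, 46.6 and 49.5 CPM in unstimulated libraries and 274, 316 and 312 CPM with LPS, a log2 fold change of 2.68 (adjusted p = 5.34e-09, edgeR's quasi-likelihood F-test with BH), against 0.03 under IFN-β (adjusted p = 0.844). The kinase *Akt1* fell under both (-0.88 and -0.29), *Mapk3* fell under LPS (-0.55) and *Shc1* under IFN-β (-0.29). With scaling by library size only, LPS raised 12 and lowered 6 of these genes, and IFN-β raised 7 and lowered 7.

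Among 12 inhibitors of cytokine signals, LPS raised 7 and lowered 3 (median 0.67) and IFN-β raised 7 and lowered 1 (median 0.34). *Socs3*, which blocks the G-CSF receptor, rose by 3.70 with LPS and 1.11 with IFN-β, and *Socs1* rose by 2.76 and 1.83. *Inpp5d*, the phosphatase SHIP1, fell under LPS (-1.83), and the adaptor *Dok2* fell under both (-1.54 and -0.27). Of 9 tested genes that respond to GM-CSF in myeloid cells, LPS raised 6 and lowered 3 (median 0.72), and IFN-β raised 5 and lowered 1 (median 0.56). Under LPS and IFN-β the chemokine *Ccl22* rose by 3.36 and 0.80, the cytokine *Osm* by 1.90 and 0.59, and *Mcl1*, a survival gene, by 0.72 and 0.68. *Pparg*, a lipid-sensing nuclear receptor, fell under both (-2.37 and -0.92), from 18.7, 14.6 and 12.7 CPM to 2.76, 3.15 and 2.95 CPM with LPS, and the lectin *Mgl2* fell under LPS (-1.17). For all genes tested the median was -0.04 under LPS and -0.02 under IFN-β. LPS raised 32.8% and lowered 35.4% of them, and IFN-β raised 23.6% and lowered 23.3%.

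Of 10 transcription factors of the myeloid lineage, several known to act on *Csf1r* or *Csf3r*, LPS raised 5 and lowered 3 (median 0.46) and IFN-β raised 6 and lowered 2 (median 0.41). *Gfi1* and *Irf8* rose most under LPS (4.18 and 1.92), and *Cebpa* fell most (-2.30). Under IFN-β *Cebpe* (1.46) and *Gfi1* (1.0) rose most, and *Cebpa* (-0.75) and *Cebpd* (-0.55) fell. Of 10 genes listed under mRNA decay, most of which act on AU-rich or stem-loop elements, LPS raised 7 and lowered 3 (median 0.53) and IFN-β raised 4 and lowered 2 (median 0.09). No such action is claimed here for *Tiparp*, which is in that list. *Zc3h12a* (Regnase-1) and *Zfp36* (tristetraprolin) rose by 2.55 and 2.08 under LPS, with *Zfp36l2* (-1.43) and *Zfp36l1* (-0.84) falling. Under IFN-β *Tiparp* (0.93, and 1.86 under LPS) and *Zfp36* (0.60) rose and *Zfp36l1* (-0.31) and *Khsrp* (-0.27) fell. Of 5 genes of ectodomain shedding, the cleavage that releases the extracellular part of CSF1R and of other surface proteins, LPS raised 3 and lowered 1 (median 1.07) and IFN-β raised 2 (median 0.45). *Rhbdf2*, a partner of the protease ADAM17, had 75.2, 77.9 and 80.6 CPM in unstimulated libraries, 370, 346 and 295 CPM with LPS, and 145, 150 and 159 CPM with IFN-β. Its log2 fold change was 2.11 under LPS and 0.96 under IFN-β. *Rhbdf1* rose by 1.80 and *Adam10* fell (-0.55) under LPS, and *Adam17* rose by 0.63 under IFN-β.

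Scaling by library size only left the named genes of these lists in the same direction except *Stat5a* under IFN-β (-0.28), although its calls for *Kitl* and *Mcl1* under LPS and *Il3ra*, *Gfi1* and *Zfp36* under IFN-β were lost. It did change the counts: LPS then raised 5 and lowered 5 of the signal inhibitors, raised 3 and lowered 3 of the GM-CSF target genes, raised 4 and lowered 4 of the lineage factors, and raised 3 and lowered 4 genes of the decay list. IFN-β then raised 5 and lowered 3 signal inhibitors, raised 2 and lowered 4 lineage factors, and raised 1 and lowered 4 genes of the decay list. Over all genes, this scaling had 12685 changed by LPS, 2779 of them higher, and 9629 by IFN-β, 2146 of them higher.

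**Figure D4:**
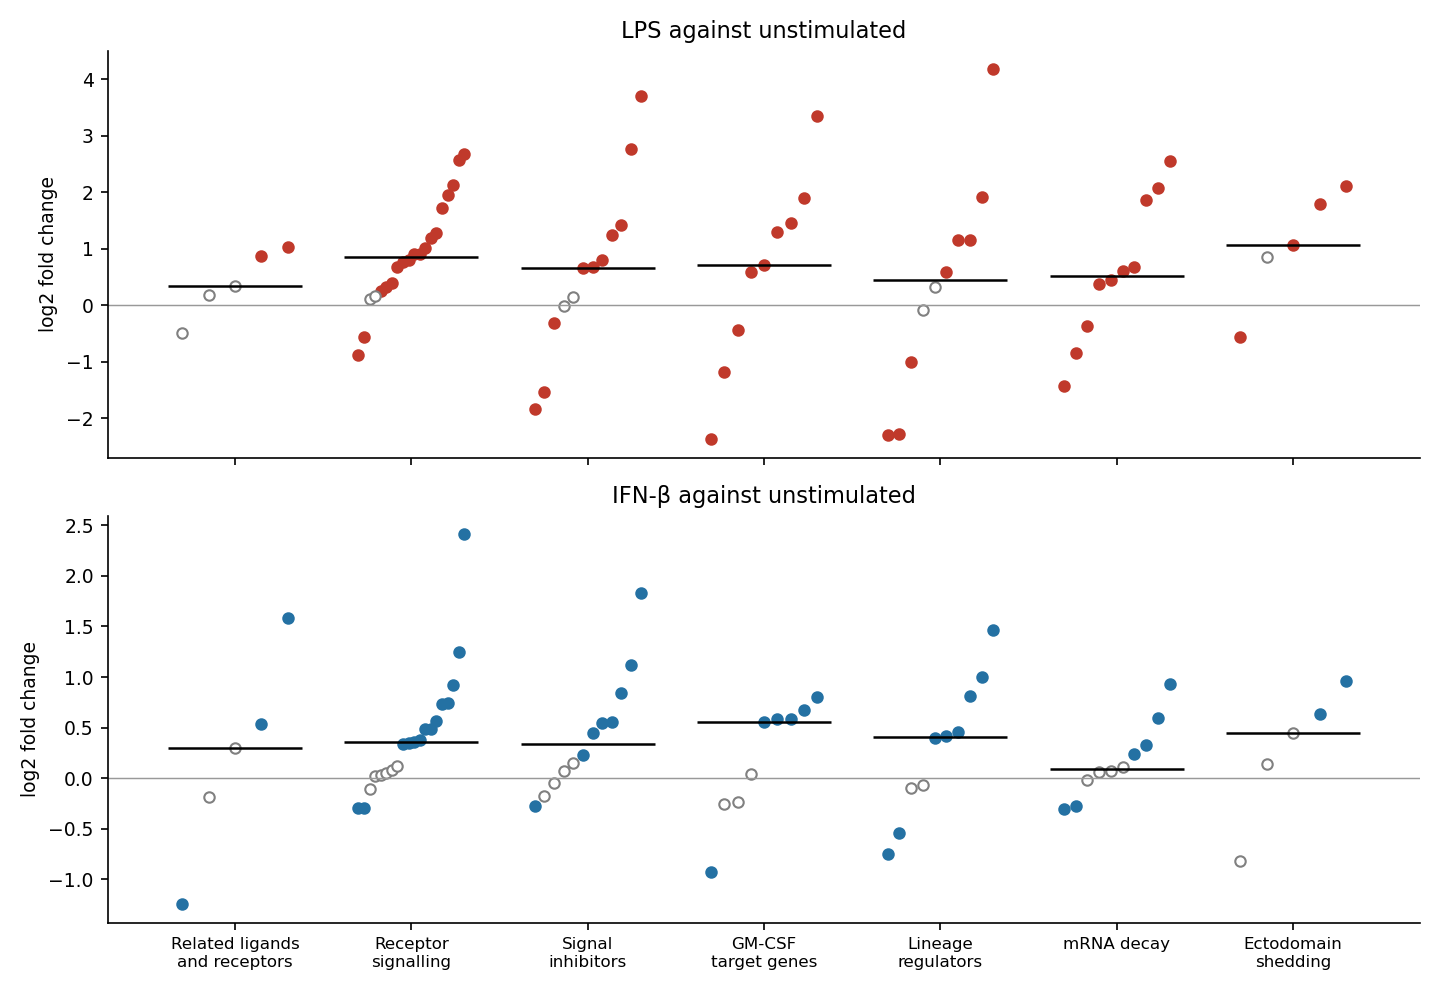
Log2 fold changes over unstimulated DCs of the tested genes of 7 lists under LPS (top) and IFN-β (bottom, with its own scale), where each point is a gene, filled points passed the test, open points did not, and lines mark the median of a list. The largest rises under LPS are those of *Gfi1* (4.18), *Socs3* (3.70) and *Ccl22* (3.36).

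The genes with the pattern most like each member over the 9 libraries were taken as a description, by Pearson's r of log2(CPM + 0.5) among 12119 protein-coding genes. Libraries of a group share their treatment and those of a letter vary together. For *Csf1* they were *Tcirg1* (0.993), *Apol9b* (0.988) and *Shfl* (0.988), and for *Csf3* they were *Zfp811* (0.9995), *Sdk1* (0.999) and the chemokine *Cxcl1* (0.999). For *Csf2* they were *Nccrp1*, *Gli1* and *Nfkbil1* (0.988 to 0.995), and with a pseudocount of 2 CPM 1 of the 3 stayed among the first 3 for *Csf2* and for *Csf3*. For *Csf1r* they were *Tuba1b* (0.996), *Degs1* and *Prcp*, and for *Csf3r* they included *Cttnbp2nl* and *Clec4a1*. The values were lower for the chains of the GM-CSF receptor, at 0.955 for *Cd52* with *Csf2ra* and 0.954 for *Lrrk1* with *Csf2rb*. The highest for the IL-3-specific chain *Csf2rb2* was also lower, at 0.980 for *Tuba8*, and its list held *Irf5* (0.965).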

How the data were processed

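RNA was sequenced from 9 libraries in 3 groups. The libraries were made with a kit that depletes ribosomal RNA and were read as 100-base paired ends. The authors trimmed the reads with Trim Galore, mapped them to GRCm38 with STAR and deposited raw counts per gene from its gene counting on GENCODE M20. The submitters' processing notes name Trim Galore 0.6.0 and STAR 2.7.8a, and the strand setting of the counting is not given in the sources used here.

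edgeR 4.0.16, limma 3.58.1 and R 4.3.3 were used with TMM factors, filterByExpr by group and 1 quasi-likelihood fit of all 9 libraries, with p-values adjusted by Benjamini-Hochberg (BH) over 16260 genes and 0.05 as threshold. The standard error is the fold change over the square root of F. Intervals are 95%, and 3 counts per library were the floor for a gene at 0. Intervals of counts and floors cover counting error only. The fit was tested on simulated data with few genes changed and no effect of the letters. That setting differs from these data, so it does not test the choice of scaling. Exon lengths, positions and UTRs came from GENCODE M21. The members and lists were chosen with earlier results of these data known. All 8 members were described. From each list the largest 2 rises and 2 falls past the threshold were named, and for each member the 3 protein-coding genes with the highest correlation, leaving out Gm and Rik names. Some genes that meet this rule are not reported here. Other genes, such as the markers that follow the letters and the neighbours, were described after their values were seen, as were counts per 100 *Csf2rb* counts and the fits without the A libraries.

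After subtraction of group means, the 9 pairs of libraries with the same letter correlated at 0.134 to 0.546 across genes and pairs with different letters at -0.48 to 0.062. The letters come from the labels, which do not say what they share. Since every same-letter pair exceeded 0.1, the letter was taken as a pairing. Library pairs within a group differed by more than counting noise (chi-square per gene of 12.3 to 33.9). The alternatives were DESeq2 1.42.0, upper-quartile factors, library sizes without factors, no filter, at least 10 counts in every library, only the 2 groups compared, the replicate block, the β chains summed, each library left out, stricter thresholds, other lengths and another pseudocount.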

Additional observations from a re-analysis of the deposited data

How the results depend on the processing

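The changes of *Csf1*, *Csf2*, *Csf3*, *Csf1r* and *Csf3r* under LPS, of *Csf1* under IFN-β, and the differences of *Csf2*, *Csf3* and *Csf1r* between stimuli kept their direction and their side of the threshold in every alternative fit that could test them. Requiring a change of 1 or more log2 units dropped *Csf1* under both stimuli, *Csf1r* under LPS and the difference of *Csf1r*, and left 3 members under LPS, 0 under IFN-β and 2 differences. The share of all genes that meets this rule was not counted, so these numbers have no background to be read against. At least 10 counts in every library left *Csf2* and *Csf3* untested and *Csf2rb2* under LPS short of the threshold (0.188), which brought the members changed from 7 to 4 under LPS and the differences between stimuli from 3 to 1. Over all genes, that filter had 9674 changed under LPS and 7120 between stimuli. In the fit of unstimulated and IFN-β-treated libraries alone *Csf3* was not tested either. Scaling by library size only, under which the median of all genes shifted by -0.58 under LPS, -0.31 under IFN-β and 0.27 between stimuli on the log2 scale, gave -0.362 for *Csf2ra*, -0.567 for *Csf2rb* and -0.381 for *Csf2rb2* under LPS, -0.367 for *Csf1r* and -0.022 for *Csf2rb2* under IFN-β, and 0.235, 0.399 and 0.359 for *Csf2ra*, *Csf2rb* and *Csf2rb2* between stimuli, where 6 members then differed. Upper-quartile factors gave 0.127 for *Csf2ra* and 0.109 for *Csf2rb2* under LPS and 0.208 for *Csf2rb2* under IFN-β, all short of the threshold, leaving 1 member changed by IFN-β. With these factors 7855 of all genes were changed by IFN-β, 3279 of them higher. Without a filter the calls of *Csf2ra* (0.201) and *Csf2rb2* (0.183) under LPS were lost, and *Csf3r* passed under IFN-β (1.166) and between stimuli (-0.92). *Csf2rb2* under LPS was also lost with the 2 groups alone (0.192). DESeq2 called *Csf2ra* under IFN-β (0.184). An adjusted p under 0.01 left 1 under IFN-β, a threshold for which no count over all genes was made. Levels per kilobase moved by more than 1 SD in 12 cases with the longest transcript and in 12 with library sizes alone. Over all genes, library sizes alone gave 12685 changed under LPS, 9629 under IFN-β and 9020 between stimuli, against 11084, 7631 and 7989 in the main fit. Beyond what the alternatives' own construction shows, the cause of the differences between settings was not tested.

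With 1 library left out, the LPS value ranged from 0.189 to 0.267 for *Csf2ra* and from 0.172 to 0.232 for *Csf2rb2*, and the IFN-β value from 0.238 to 0.321 for *Csf2rb2* and from 0.588 to 1.893 for *Csf3r*. The number of members changed by IFN-β ranged from 1 to 3, while that of all genes ranged from 6467 to 7742. Without the A libraries, chosen after seeing the data, *Csf2ra* (0.217) and *Csf2rb2* (0.201) were not called under LPS, and *Csf3r* was called under IFN-β (1.318) and between stimuli (-0.885).

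The replicate block, with the letters as a pairing, raised the members changed by IFN-β to 4, through *Csf2ra* (0.177) and *Csf3r* (1.225), and made the difference of *Csf3r* between stimuli pass (-0.907). It changed no other call of a member. Over all genes, the block raised the number changed by IFN-β from 7631 to 9151.

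Depth limits *Csf2* and *Csf3*, whose counts per library reached at most 44 and 189.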

Other observations

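The genes beside the members in the genome were looked at after the members' values were known. *Pdgfrb*, a receptor tyrosine kinase best known from stromal cells, lies 15536 bases from *Csf1r* and moved the other way. It had 0.431, 0.786 and 0.925 CPM in unstimulated libraries A, B and C, 31.6, 22.1 and 16.7 CPM with LPS, and 0.773, 0.637 and 0.525 CPM with IFN-β. Its log2 fold change under LPS was 5.02 (SE 0.29, adjusted p = 1.02e-07, edgeR's quasi-likelihood F-test with BH), where that of *Csf1r* was -0.97. The remaining stromal and endothelial markers did not all follow it: of the 8 others, 7 were tested, and LPS raised 3 (*Kdr*, *Cdh5* and *Pecam1*) and lowered 1. *Kdr*, an endothelial receptor tyrosine kinase, had 9.2 to 10.7 CPM in unstimulated, 120 to 126 CPM in LPS-activated and 123 to 152 CPM in IFN-β-treated DCs. *Slc26a2*, on the far side of *Csf1r*, had a log2 fold change of -0.19 under LPS, which did not pass the test.

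*Il3*, which lies 15635 bases from *Csf2*, had 0 counts in all 9 libraries, LPS-activated libraries included. *Psmd3* and *Med24*, which flank *Csf3*, changed by 0.11 and -0.15 on the log2 scale under LPS, neither past the test, beside 5.21 for *Csf3*. *Ncf4*, a subunit of the phagocyte oxidase that lies 19926 bases from *Csf2rb2*, rose under LPS (0.60, adjusted p = 6.33e-06) and IFN-β (0.53, adjusted p = 5.7e-05) by edgeR's quasi-likelihood F-test with BH. *Mrps15*, 2484 bases from *Csf3r*, fell under LPS (-0.51 on the log2 scale).

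*Hdc*, listed as a mast cell and basophil marker, was named after its values were seen. It had 0.226 to 0.561 CPM in unstimulated, 129 to 151 CPM in LPS-activated and 5.76 to 7.80 CPM in IFN-β-treated DCs. Its log2 fold change was 8.33 under LPS (adjusted p = 1.06e-09) and 3.96 under IFN-β (adjusted p = 1.02e-06) by edgeR's quasi-likelihood F-test with BH. In the same list, 6 of the 8 markers stayed below 1 CPM in every library.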
